A study of Mus musculus with 6 samples.

Results

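Transcript levels of 9 apoptosis regulators were followed across 6 RNA sequencing libraries of mouse embryonic stem cells that differ in THAP1. The genes are Pawr, a reported partner of the THAP1 protein, the guardians Bcl2, Bcl2l1 and Mcl1, the pore formers Bax and Bak1, the BH3-only genes Bcl2l11 and Bmf, and the initiator caspase gene Casp8. They were taken by symbol from the deposited table of 19713 genes. All 9 were present. All 9 were also among the 15287 genes that reached a normalized count of 10 in 2 or more libraries and were tested.

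The cells were C57Bl/6 embryonic stem cells grown on irradiated mouse embryonic fibroblasts with serum and leukemia inhibitory factor. WT cells carry unaltered THAP1, C54Y cells carry a missense change of the THAP1 zinc finger domain on both alleles, and KO cells are labelled THAP1 -/- and lack exon 2 of Thap1. Each genotype has 2 libraries, numbered replicate 1 and replicate 2. The labels do not say how many clones or cultures stand behind a genotype, nor whether feeder cells were removed before RNA was extracted, so p-values measure only the spread between these libraries, which may be technical.

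Cells commit to the mitochondrial route of apoptosis when BAX and BAK1 make pores in the outer mitochondrial membrane and cytochrome c escapes. BCL2, BCL-XL (from Bcl2l1) and MCL1 hold the pore formers back, and BH3-only proteins such as BIM (from Bcl2l11) and BMF bind these guardians or the pore formers themselves and tip the balance towards death. CASP8 starts the other route, from death receptors at the cell surface. PAWR, also known as PAR-4, is a pro-apoptotic leucine zipper protein that was reported to bind THAP1 in PML nuclear bodies, which is why it is described beside the BCL2 family. Pluripotent stem cells are known for a low threshold to mitochondrial apoptosis and for dependence on MCL1 and BCL-XL.

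Recovered read totals ran from 31774656 to 46772996 per library. All 10 stem cell markers examined, from Pou5f1 to Lin28a, had reads in every library. Of 20 fibroblast markers 1 or 2 were at 0 in each library, Lum in 5 libraries and Fap in 3. Thap1 itself had normalized counts of 433 and 701 in WT replicates 1 and 2, 2253 and 2533 in C54Y, and 1975 and 1687 in KO. Both mutants thus stood above WT, by 1.72 ± 0.22 in KO and 2.11 ± 0.22 in C54Y (log2 fold change ± SE, adjusted p = 0.0018 and 0.00301). A count over the whole gene checks neither the lost exon nor the missense change.

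In KO cells Bcl2, Pawr and Bcl2l11 fell, and the other 6 members were not called. In C54Y cells none of the 9 was called, although Bcl2, Pawr and Bcl2l11 lay between WT and KO in both replicates. The genes that fell therefore include 1 guardian, 1 BH3-only gene and the THAP1 partner. Calls come from limma on log2 of the normalized count plus 2, with the replicate number as a block and Benjamini-Hochberg adjustment over all tested genes at 0.05. In this fit 7.41% of all tested genes were called lower and 8.90% higher in KO, against 3 and 0 of the 9 members. Without the block limma called 0 of the members and 0 of all genes (1 member, Bcl2, and 1049 genes at an unadjusted p under 0.05), edgeR also called 0 genes, and DESeq2 called 235, none of them a member. Every call below thus rests on comparing libraries that carry the same replicate number.

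The promoters of the 3 genes that fell are shown because they are the stretch of each gene where a THAP1 site would be sought. THAP1 is known to recognise a short core, TNNNGGCA read from 5′ to 3′. Pawr lies at chr10:108332189-108414391, Bcl2 at chr1:106538176-106714290 and Bcl2l11 at chr2:128126038-128162547 of GRCm38.p6. The windows run from 250 bases before to 50 bases after a RefSeq start site of that build, in the direction of the gene, with matches to the core on either strand in capitals.
Pawr, chr10:108331939-108332238, plus strand: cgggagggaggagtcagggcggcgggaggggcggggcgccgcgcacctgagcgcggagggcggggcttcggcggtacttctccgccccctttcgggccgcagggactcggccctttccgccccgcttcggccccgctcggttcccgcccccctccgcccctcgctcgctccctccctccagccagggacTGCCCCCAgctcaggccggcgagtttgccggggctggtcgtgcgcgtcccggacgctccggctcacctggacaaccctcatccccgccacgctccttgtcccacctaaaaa
Bcl2, chr1:106714241-106714540, minus strand: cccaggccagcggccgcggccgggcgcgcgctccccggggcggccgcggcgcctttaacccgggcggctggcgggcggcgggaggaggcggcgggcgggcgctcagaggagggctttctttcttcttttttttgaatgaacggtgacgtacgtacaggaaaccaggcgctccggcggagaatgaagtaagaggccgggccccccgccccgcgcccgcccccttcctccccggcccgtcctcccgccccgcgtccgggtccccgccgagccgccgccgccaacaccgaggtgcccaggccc
Bcl2l11, chr2:128125788-128126087, plus strand: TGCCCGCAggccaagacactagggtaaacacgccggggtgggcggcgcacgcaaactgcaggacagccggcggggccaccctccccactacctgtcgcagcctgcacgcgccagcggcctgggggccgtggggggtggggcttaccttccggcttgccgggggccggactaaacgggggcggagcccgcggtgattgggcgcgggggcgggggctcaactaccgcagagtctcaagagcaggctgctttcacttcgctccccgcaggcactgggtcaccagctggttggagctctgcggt

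The Pawr window held 1 match, on the strand opposite to the gene, where it reads TGGGGGCA. The Bcl2l11 window held 1 at its far upstream end, TGCGGGCA on the opposite strand, and a second Bcl2l11 window held none. No match to these letters lay in the Bcl2 window. All 3 windows are rich in G and C, at 75% for Pawr, 76% for Bcl2 and 71% for Bcl2l11, with 36, 44 and 27 CpG pairs. RefSeq gave 14 windows for the 9 members, of which 6 (42.9%) held the core, against 42.0% of all 32851 windows of the same 300 bases. A match of so short a core is a description of letters and not a binding site.

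Bcl2, the founding guardian of the family, moved most. Its normalized count in replicate 1 was 211 in WT, 143 in C54Y and 19.1 in KO, and in replicate 2 it was 64.3, 44.2 and 12.7. Both KO libraries lay below both WT and both C54Y libraries, while WT and C54Y overlapped. KO held 9.07% of the WT level in replicate 1 and 19.8% in replicate 2, a log2 fold change of -2.75 ± 0.38 (SE, adjusted p = 0.00255). Group means were 137 ± 103 in WT, 93.5 ± 69.7 in C54Y and 15.9 ± 4.51 in KO (SD, n = 2). The KO values rest on 22 and 10 reads, against 282 and 50 in WT. Exact Poisson 95% intervals, which cover counting error only, were 11.98 to 28.9 and 6.10 to 23.4 normalized counts in KO and 187 to 237 and 47.8 to 84.8 in WT, so within each replicate they did not overlap. This call held with each of the 6 libraries left out, with fold changes from -3.33 to -2.18. Of the Bcl2 exons 558 bases (6.09%) overlap an antisense gene, D630008O14Rik, and no strand setting is given. In bulk RNA, fewer cells that express Bcl2 and less Bcl2 RNA per cell cannot be told apart.

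Pawr was the next to fall. Normalized counts in replicate 1 were 3238 in WT, 2500 in C54Y and 1505 in KO, and in replicate 2 they were 1004, 796 and 621. Replicate 1 stood above replicate 2 in every genotype, so KO replicate 1 lay above WT replicate 2 and the groups overlapped, but within each replicate the order was WT, C54Y, KO. KO kept 46.5% of the WT level in replicate 1 and 61.9% in replicate 2, a log2 fold change of -0.90 ± 0.17 (adjusted p = 0.00939). The group means of 2121 ± 1580 in WT and 1063 ± 625 in KO (SD, n = 2) carry this difference between replicates in their SDs. Without WT replicate 1 the fold change was -0.78 and the call was lost (adjusted p = 0.0631).

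Bcl2l11 encodes BIM, the BH3-only protein that engages all guardians. It stood at 2651, 2183 and 1404 normalized counts in WT, C54Y and KO of replicate 1, and at 2031, 1730 and 1480 in replicate 2. Both KO libraries lay below both WT libraries and below both C54Y libraries. The log2 fold change in KO was -0.69 ± 0.17 (adjusted p = 0.0253), with 52.9% of the WT level left in replicate 1 and 72.9% in replicate 2. This call too was lost without WT replicate 1 (-0.56, adjusted p = 0.201).

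**Figure D1:**
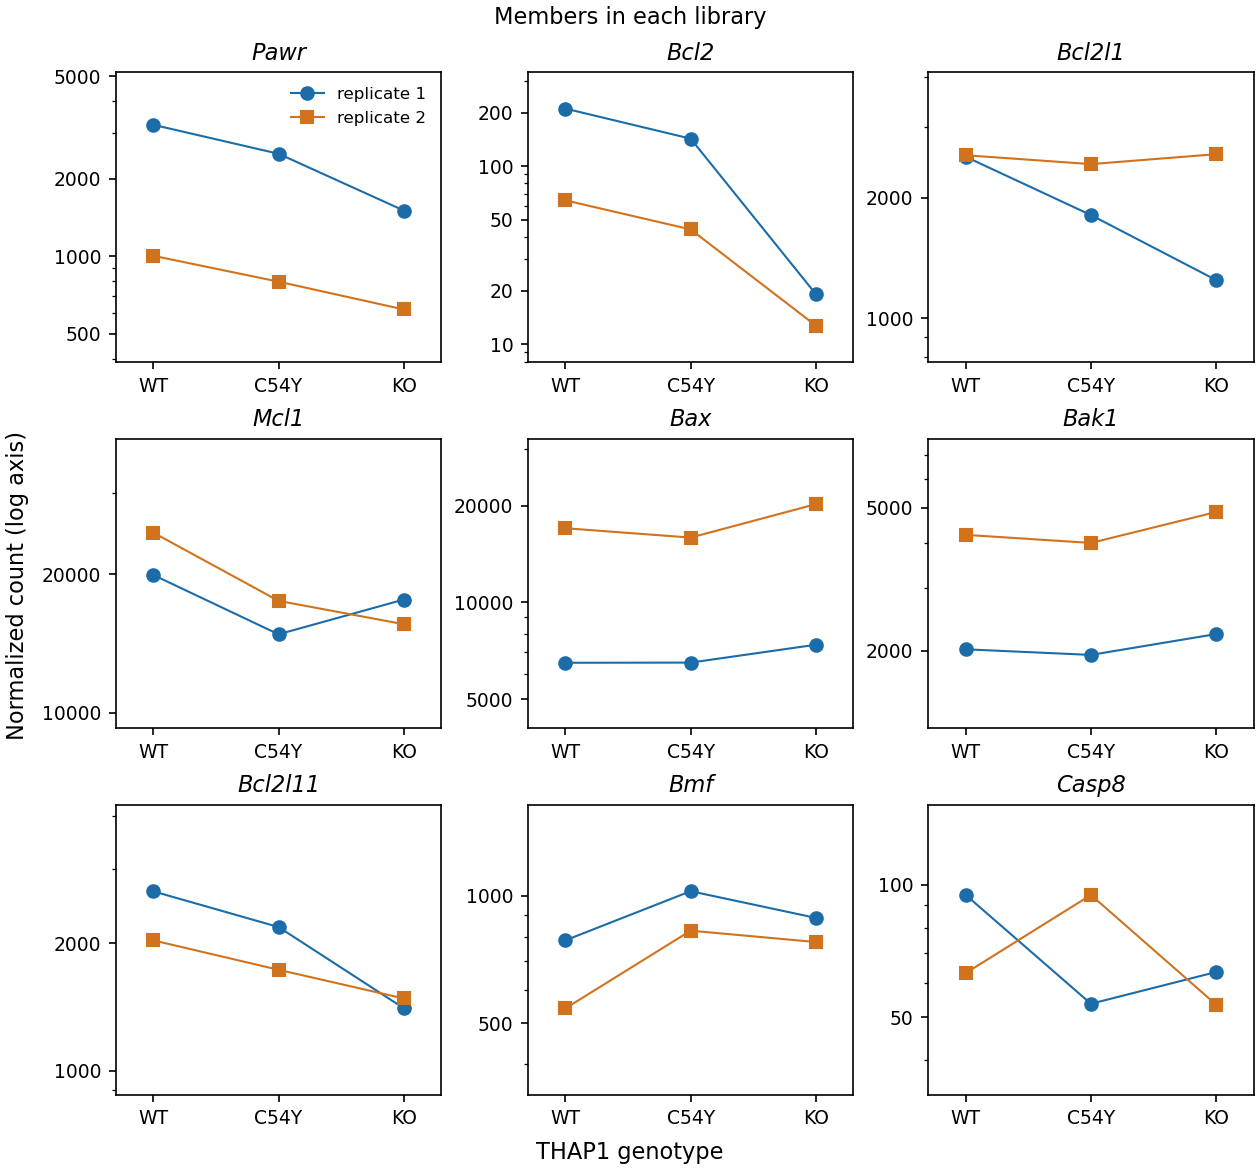
Normalized counts (log axes, a range of its own in each panel) of the 9 genes in WT, C54Y and KO libraries, with circles for replicate 1 and squares for replicate 2, each joined by a line. Bcl2, Pawr and Bcl2l11 go down from WT through C54Y to KO in both replicates, Bcl2l1 goes down in replicate 1 alone, and Bax and Bak1 differ more between replicates than between genotypes.

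Mcl1, the guardian that stem cells are known to lean on, was lower than WT in all 4 mutant libraries. It had 19915 normalized counts in WT, 14807 in C54Y and 17614 in KO of replicate 1, and 24611, 17502 and 15572 in replicate 2. The mutant libraries of either genotype did not overlap with WT. With the deposited scaling the KO difference missed the threshold (-0.42 ± 0.14, 95% interval -0.74 to -0.10, adjusted p = 0.078). It passed under TMM scaling of the same model (-0.51, adjusted p = 0.0338), with edgeR (-0.50, adjusted p = 0.0363) and with limma-voom (adjusted p = 0.0232), and not with DESeq2 (adjusted p = 0.128). It also passed without WT replicate 1 (adjusted p = 0.0315) or KO replicate 1 (0.000229). In C54Y the difference was of like size (-0.46 ± 0.14, 95% interval -0.78 to -0.14, adjusted p = 0.194).

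Bcl2l1, the gene of BCL-XL, differed between the replicates in its response. Replicate 1 had normalized counts of 2527 for WT, 1809 for C54Y and 1246 for KO, the last being 49.3% of WT. In replicate 2 the values were 2549, 2423 and 2565, so KO stood at 100.6% of WT under the deposited scaling. As reads scaled to library size (CPM), Bcl2l1 had 61.2, 58.7 and 57.1 there, lower at each step. The mean difference of -0.51 ± 0.22 in KO was not called (95% interval -1.01 to 0.00355, adjusted p = 0.164), but passed without WT replicate 2 (adjusted p = 0.0331) or KO replicate 2 (0.000113). WT replicates were close together, at 2538 ± 15.6 (SD, n = 2), whereas KO stood at 1905 ± 933.

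Under the deposited scaling the pore formers were higher in KO than in WT of the same replicate, by less than the test could call. Bax had 6488, 6496 and 7384 normalized counts in WT, C54Y and KO of replicate 1, and 17020, 15916 and 20228 in replicate 2. Its KO difference was 0.22 ± 0.12 (95% interval -0.06 to 0.49, adjusted p = 0.264). Bak1 had 2020, 1949 and 2227 in replicate 1 and 4203, 3991 and 4865 in replicate 2, a KO difference of 0.18 ± 0.14 (95% interval -0.14 to 0.49, adjusted p = 0.429). In C54Y both lay near WT, at -0.05 (95% interval -0.32 to 0.23) and -0.06 (-0.37 to 0.25). Part of the Bak1 transcript, 256 bases or 10.7% of its exons, overlaps Ggnbp1 on the other strand, and of the Bax exons 192 bases (22.1%) are shared with Gm45808 on the same strand. Reads from such bases cannot be assigned to 1 gene.

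Bmf, whose protein is a BH3-only regulator held at the cytoskeleton, exceeded WT of the same replicate in all 4 mutant libraries under the deposited scaling. It was the only member to do so. Normalized counts were 785, 1026 and 887 in WT, C54Y and KO of replicate 1, and 542, 827 and 778 in replicate 2. Both C54Y libraries lay above both WT libraries, while KO overlapped WT. The C54Y difference of 0.50 ± 0.18 had an interval clear of 0 (0.10 to 0.90) before adjustment and was not called after it (adjusted p = 0.271), and the KO difference was 0.35 ± 0.18 (95% interval -0.05 to 0.75, adjusted p = 0.219), called only without KO replicate 1 (adjusted p = 0.045).

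Casp8, which encodes the initiator of death receptor signalling, was scarce. It was lower than WT in both replicates of KO and had no steady direction in C54Y. It had 94.9, 53.7 and 63.4 normalized counts in WT, C54Y and KO of replicate 1, and 63.1, 94.8 and 53.5 in replicate 2, from 42 to 127 reads. C54Y was below WT in replicate 1 and above it in replicate 2. The KO difference of -0.40 ± 0.38 left a wide interval (-1.25 to 0.45, adjusted p = 0.518).

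**Figure D2:**
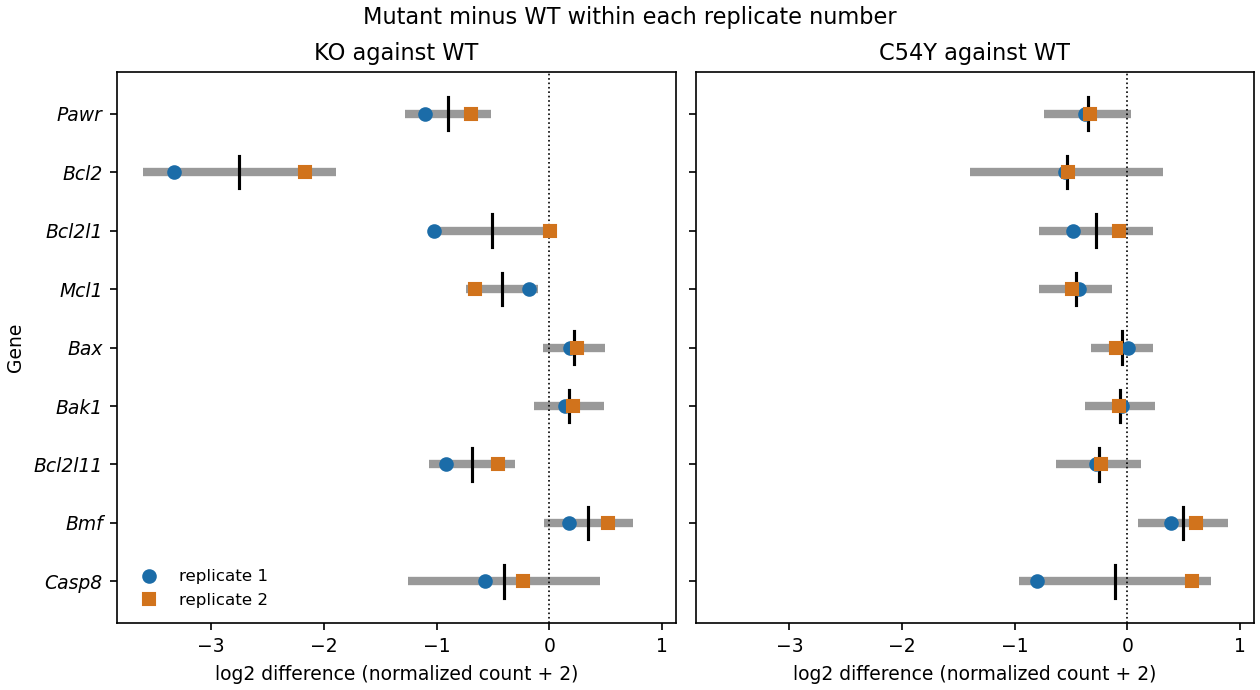
Differences from WT on the log2 scale (normalized count + 2) for KO and C54Y, with circles for replicate 1, squares for replicate 2, a black tick for the fitted value and a grey bar for its 95% interval before adjustment over genes. Bcl2 in KO lies far below all others (-3.33 and -2.17 in the replicates), and the replicates of Pawr, Bcl2 and Bcl2l11 in C54Y nearly coincide.

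The comparison of C54Y with WT asks what the missense change does to these genes. Pawr stood at 77.2% and 79.3% of WT in the replicates, Bcl2 at 67.8% and 68.6%, and Bcl2l11 at 82.4% and 85.2%. The fitted differences were -0.35 (95% interval -0.74 to 0.03, adjusted p = 0.453), -0.54 (-1.39 to 0.32, adjusted p = 0.668) and -0.26 (-0.63 to 0.12, adjusted p = 0.638). For Bcl2 in replicate 2, with 34 reads in C54Y and 50 in WT, the Poisson 95% intervals overlapped (30.6 to 61.7 and 47.8 to 84.8 normalized counts). In replicate 1 those intervals did not overlap (124 to 163 and 187 to 237). limma called 0 of the 9 members, with Mcl1 and Bmf at an unadjusted p under 0.05, and edgeR, DESeq2 and limma-voom with the block also called 0. In C54Y 0.399% of all tested genes were called lower and 0.962% higher. Fitted with the C54Y and WT libraries alone, Pawr (adjusted p = 0.0322), Mcl1 (0.0014) and Bmf (0.0129) passed. That fit called 1743 genes in place of 208. The same 3 members passed without either KO library, and Mcl1 also without WT replicate 1 (adjusted p = 0.0469), so these calls depend on which libraries set the spread.

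The counts of direction that follow use the deposited scaling. By direction alone, 6 of 9 members were lower in C54Y than in WT in both replicates (Pawr, Bcl2, Bcl2l1, Mcl1, Bak1 and Bcl2l11), against 32.6% of all tested genes. In KO 5 of 9 were lower in both (Pawr, Bcl2, Mcl1, Bcl2l11 and Casp8), against 29.5%. Both mutant libraries lay below both WT libraries for 3 members in KO (Bcl2, Mcl1 and Bcl2l11; 13.6% of all genes) and for 2 in C54Y (Bcl2l1 and Mcl1; 8.69% of all genes). The order WT above C54Y above KO in both replicates held for 3 members, Pawr, Bcl2 and Bcl2l11, and for 11.2% of all genes. Both contrasts share the WT libraries, so the directions in KO and C54Y are not independent. The median member difference was -0.42 in KO and -0.26 in C54Y, where all tested genes had medians of 0.03 and -0.00206.

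Set directly against C54Y, KO differed most in Bcl2. The difference was -2.21 ± 0.38 (95% interval -3.07 to -1.36), with -2.78 in replicate 1 and -1.65 in replicate 2, and narrowly missed the threshold (adjusted p = 0.0586). It passed with DESeq2 (-2.44, adjusted p = 0.000338), limma-voom (-2.60, adjusted p = 0.0211) and the 4 libraries of these groups alone (adjusted p = 9.37e-05), and not with edgeR (-2.56, adjusted p = 0.0521). Left-out libraries gave adjusted p from 1.22e-05 to 0.342, the latter without C54Y replicate 1, and the other 5 of the 6 fits called it. Pawr (-0.54 ± 0.17, adjusted p = 0.188) and Bcl2l11 (-0.43 ± 0.17, adjusted p = 0.273) were lower in KO in both replicates and were not called, except without KO replicate 2 (adjusted p = 0.000934 and 0.00233), where Bcl2l1 also passed (0.00591). limma called 0 of 9 members here, 3 having an unadjusted p under 0.05, beside 0.190% of all genes. The remaining 6 differences lay between -0.29 (Casp8) and 0.27 (Bax).

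Levels of different genes were compared as normalized counts per kilobase of exon. In WT the order of means was Bax (13557 ± 8590, SD, n = 2), Mcl1 (6513 ± 972), Bak1 (1303 ± 647), Pawr (1215 ± 905), Bcl2l1 (653 ± 4.01), Bcl2l11 (339 ± 63.6), Bmf (137 ± 35.6), Casp8 (27.3 ± 7.78) and Bcl2 (15.0 ± 11.3). Neighbours whose WT libraries overlapped were Bak1 with Pawr, Pawr with Bcl2l1, and Casp8 with Bcl2. The other neighbours did not overlap, Bax and Mcl1 lying closest (7483 and 19631 against 5826 and 7200). KO had the same order of means, and there Bcl2, at 2.09 and 1.39, lay below Casp8, at 21.9 and 18.5. Among the 9 genes Bcl2 RNA was thus the scarcest by its mean, Bcl2l1 standing at 28.3 and 93.3 times its level in the WT libraries, and its fall took place at a low level.

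Balances within a library moved with both replicate and genotype. Bax exceeded Bcl2 per kilobase by 325-fold in WT, 480-fold in C54Y and 4081-fold in KO of replicate 1, and by 2794-fold, 3806-fold and 16785-fold in replicate 2. WT of replicate 2 therefore already had a higher ratio than C54Y of replicate 1. The KO ratios rest on 22 and 10 Bcl2 reads in replicates 1 and 2. Their Poisson 95% intervals are wide, at 11.98 to 28.9 and 6.10 to 23.4 normalized counts of Bcl2. Bax to Bcl2l1, a guardian more abundant than Bcl2, was 11.5, 16.1 and 26.6 in replicate 1 and 29.9, 29.5 and 35.4 in replicate 2. Bax was not set against Mcl1, the most abundant guardian among the members (6513 ± 972 per kilobase in WT). These ratios were chosen after the values had been seen and are given with no test.

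For several members the replicate number set the level more than the genotype did. Bax was 2.45 to 2.74 times and Bak1 2.05 to 2.18 times as high in replicate 2 as in replicate 1 of the same genotype. Pawr went the other way, replicate 1 being 3.23, 3.14 and 2.42 times as high as replicate 2 in WT, C54Y and KO. For Bcl2 the same ratio was 3.27 in WT and 3.23 in C54Y but 1.501 in KO. Mcl1 differed by at most 1.24-fold between replicates in every genotype. The pre-ribosomal transcript Rn45s made up between 0.472% and 0.5996% of all reads in the replicate 1 libraries, against 1.49% to 2.05% in those of replicate 2, and its part in these differences was not tested.

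Markers of other cells were set beside the 3 genes that fell. Of 10 endoderm markers, whose cells arise in such cultures by differentiation, 9 were called lower in KO and 8 in C54Y, and none was at 0 in any library. Their sum without the abundant Sparc is given in CPM (reads scaled to library size). It was 709.7 in WT, 227 in C54Y and 186 in KO of replicate 1, and 276.8, 135.9 and 112.8 in replicate 2. Sparc itself had 552.6, 315.8 and 322 CPM in replicate 1 and rose in replicate 2 (352.1, 371.2 and 406.7). With Sparc the sum was 1262, 543 and 508 in replicate 1. In replicate 2 it was 629, 507 and 519, so KO was not below C54Y there. Bcl2 in the same libraries had 6.75, 4.49 and 0.541 CPM in replicate 1, and 1.55, 1.07 and 0.283 in replicate 2. Between KO and C54Y none of the 10 endoderm markers was called. The markers' differences ran from -1.40 (Cubn) to 0.46 (Lama1) with a median of -0.40. Bcl2 was not called by limma either (adjusted p = 0.0586), but its difference of -2.21 lay below those of all 10 markers. Cubn went from 8.19 CPM in C54Y to 3.54 in KO of replicate 1 and from 3.87 to 1.02 in replicate 2. Lama1, the largest part of the sum without Sparc in KO, went from 98.0 to 128 and from 46.4 to 55.5. Pawr had 103.8, 78.6 and 42.6 CPM in replicate 1 and 24.1, 19.3 and 13.8 in replicate 2. The 19 fibroblast markers other than Fn1 summed to 250.4, 242.1 and 111.9 in replicate 1 and 507.6, 591.1 and 514.4 in replicate 2. In replicate 2 that sum was slightly higher in KO than in WT, but most single markers were lower. From WT to KO of replicate 2, Col1a1 (140.6 to 149.9) and Fbln2 (106.2 to 122.4) were among those that rose. S100a4 (40.4 to 34.9), Mmp2 (25.2 to 15.6) and Pdgfra (3.77 to 1.16) were among those that fell. Of 18 fibroblast markers tested, 2 were called lower in KO (Pdgfra and Mmp2) and 1 in C54Y (Pdgfra), with medians of -0.55 and 0.10. Of 10 stem cell markers 6 were called higher in KO (Pou5f1, Nanog, Esrrb, Zfp42, Klf4 and Dppa5a) and 0 lower. The other 4 were Sox2 (0.43), Tdgf1 (0.29), Utf1 (-0.14) and Lin28a (-0.37). Utf1 and Lin28a were each lower in KO in both replicates. What part a shift in cell types has in the fall of Bcl2, Pawr and Bcl2l11 was not tested.

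**Figure D3:**
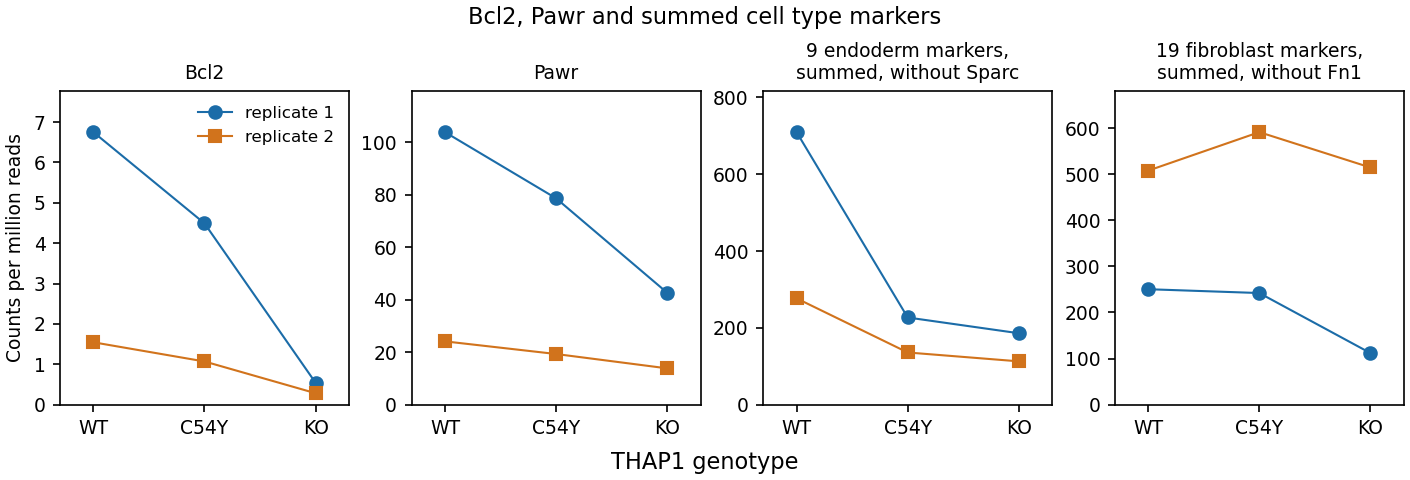
CPM (linear axes from 0) of Bcl2, Pawr, 9 summed endoderm markers and 19 summed fibroblast markers by genotype, circles for replicate 1 and squares for replicate 2. Bcl2 and the endoderm sum, drawn without Sparc, are lower at each step from WT through C54Y to KO in both replicates. With Sparc, which rose in replicate 2, the endoderm sum there was 629, 507 and 519, so KO was not below C54Y. The fibroblast sum is lower in KO than in WT in replicate 1 (111.9 against 250.4) and not in replicate 2 (514.4 against 507.6). Most single fibroblast markers, which are not drawn, were lower in KO than in WT of replicate 2.

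Genes whose 4 differences from WT were closest to those of Bcl2 were Prom1 (a membrane glycoprotein of stem and epithelial cells), Mmp25 (a membrane-bound matrix metalloproteinase) and Lrp2 (the endocytic receptor megalin), at Euclidean distances of 0.327, 0.365 and 0.436 among 11353 genes with a mean normalized count of at least 100. Lrp2, for example, went from 9841 in WT to 6855 in C54Y and 911 in KO of replicate 1, and from 3106 to 1824 and 541 in replicate 2. Nearest to Pawr were Acadl, an enzyme of fatty acid oxidation (0.146), Zdhhc2, a palmitoyltransferase (0.154), and Tmem88 (0.157).

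The wider pathway was taken from lists by role. Of 61 tested genes 6 were called higher and 9 lower in KO, and 1 in each direction in C54Y. Of all tested genes 8.90% were called higher and 7.41% lower in KO, and 0.962% and 0.399% in C54Y. The same shares stand beside the list counts that follow. Leaving out the members, whose partner Thap1 is counted here, 6 of 53 rose and 7 fell in KO, with a median of -0.01. Among 5 tested guardians, Bcl2l10 was called up beside the fall of Bcl2, from 3.73 and 12.9 normalized counts in WT to 33.9 and 38.2 in KO. C54Y replicate 2, at 41.6, was as high, and the call ended in 9 of 17 alternatives, among them those without KO replicate 1 (adjusted p = 0.221) or WT replicate 2 (0.0613), TMM scaling (0.0528), edgeR (0.0561) and limma-voom (0.0812) with the block, and a pseudocount of 1 (0.0509). Bcl2l2 (-0.37, adjusted p = 0.167) was not called. None of 3 pore formers was called, Bok standing at -0.38 (adjusted p = 0.157).

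Of 8 BH3-only genes tested only Bcl2l11 was called in KO, with a list median of -0.21. Bbc3, the gene of PUMA, stood at -0.54 (adjusted p = 0.0816), Pmaip1, the gene of NOXA, at -0.37 (adjusted p = 0.218), and Hrk at 0.72 (adjusted p = 0.102). None of 3 initiator caspases (Casp8, Casp9 and Casp2) was called in either mutant. The inflammatory caspase genes Casp4 and Casp12 had 0 to 4 reads per library and were not tested.

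Downstream of the pore, Apaf1, the scaffold of the apoptosome, fell in KO (-0.91 ± 0.16, adjusted p = 0.00686). Its normalized counts were 3326, 2508 and 1969 in WT, C54Y and KO of replicate 1 and 1210, 870 and 578 in replicate 2, the same order as for Pawr. Aifm1, which encodes a mitochondrial flavoprotein that can act in caspase-independent death, rose (0.92 ± 0.17, adjusted p = 0.00943). So did the caspase inhibitor gene Xiap (1.00 ± 0.25, adjusted p = 0.0293), which no longer passed once WT replicate 2 was left out. Both are on the X chromosome. There the median difference in KO was 0.62 over 385 genes with a mean of at least 100, against 0.04 over 10351 autosomal genes. In KO 39.5% of these X-linked genes were called higher, against 8.07% of the autosomal ones. In C54Y the medians were 0.27 and -0.00516, with 4.42% and 0.889% called higher. What part this has in the rises of Aifm1 and Xiap was not tested. Xiap also had 2121, 2386 and 3953 normalized counts in WT, C54Y and KO of replicate 1 but 57.9, 131 and 126 in replicate 2. The apoptosome and mitochondrial list had 1 up and 1 down of 6, and the inhibitor (IAP) list 1 up and 0 down of 6.

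Of the pathway genes only Cradd, in the death receptor list, and Thap1 were called in both mutants. Cradd, the death-domain adaptor that links PIDD1 to caspase-2, went from 299.5 in WT to 25.2 in C54Y and 43.4 in KO of replicate 1, and from 623 to 87.0 and 103 in replicate 2. All mutant libraries lay below all WT libraries, with differences of -2.65 ± 0.28 in KO and -3.14 ± 0.28 in C54Y (adjusted p = 0.000945 and 0.00176), and both calls held with each library left out. Pidd1 itself (-0.27, adjusted p = 0.336) and Casp2 (0.14, adjusted p = 0.62) were not called in KO. The death receptor gene Fas fell in KO (-1.53 ± 0.41, adjusted p = 0.034) at low counts, 38.1 and 28.3 in WT against 11.3 and 8.91. Dedd fell (-0.67) and Tnfrsf21, the gene of death receptor 6, rose (0.62). The calls of Fas, Dedd and Tnfrsf21 ended without either WT library, that of Fas also without KO replicate 1 and with DESeq2 (adjusted p = 0.137), and that of Tnfrsf21 also without either C54Y library, with TMM scaling, with edgeR and with the KO and WT libraries alone (10 of 18 alternatives in all, unblocked fits included). Of 12 genes in this list 1 was up and 3 were down in KO, with a median of -0.36, and 0 and 1 in C54Y.

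Among 11 genes whose proteins are reported to work with PAWR, Wt1, a zinc finger factor that PAWR binds, fell in KO (-1.63 ± 0.27, adjusted p = 0.00531). Its counts were 160, 96.6 and 59.9 in WT, C54Y and KO of replicate 1 and 327, 158 and 87.8 in replicate 2, and the call held with each library left out. Thap1 is in the same list and rose. The atypical protein kinase C genes Prkcz (0.21, adjusted p = 0.469) and Prkci (-0.23, adjusted p = 0.308), Daxx (0.28, adjusted p = 0.188) and Hspa5 (0.01, adjusted p = 0.965) were not called. The list median in KO was 0.000655.

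Of 7 upstream regulators tested, Foxo1, a factor that can activate Bcl2l11, fell in KO (-0.68 ± 0.15, adjusted p = 0.0201), as did Mdm2 (-0.58, adjusted p = 0.0456), the ligase that removes p53. Trp53 rose (0.46, adjusted p = 0.0456). Both KO libraries were below both WT libraries for Foxo1, at 1135 and 946 against 1698 and 1616, and its call was lost without either WT library. The Mdm2 call held in 2 and the Trp53 call in 1 of the 6 fits that leave a library out. Counting all alternatives, the Mdm2 call ended in 9 of 18 and the Trp53 call in 14 of 18, edgeR (adjusted p = 0.104), DESeq2 (0.0657) and limma-voom (0.0826) with the block among the latter. None of the 7 was called in C54Y.

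**Figure D4:**
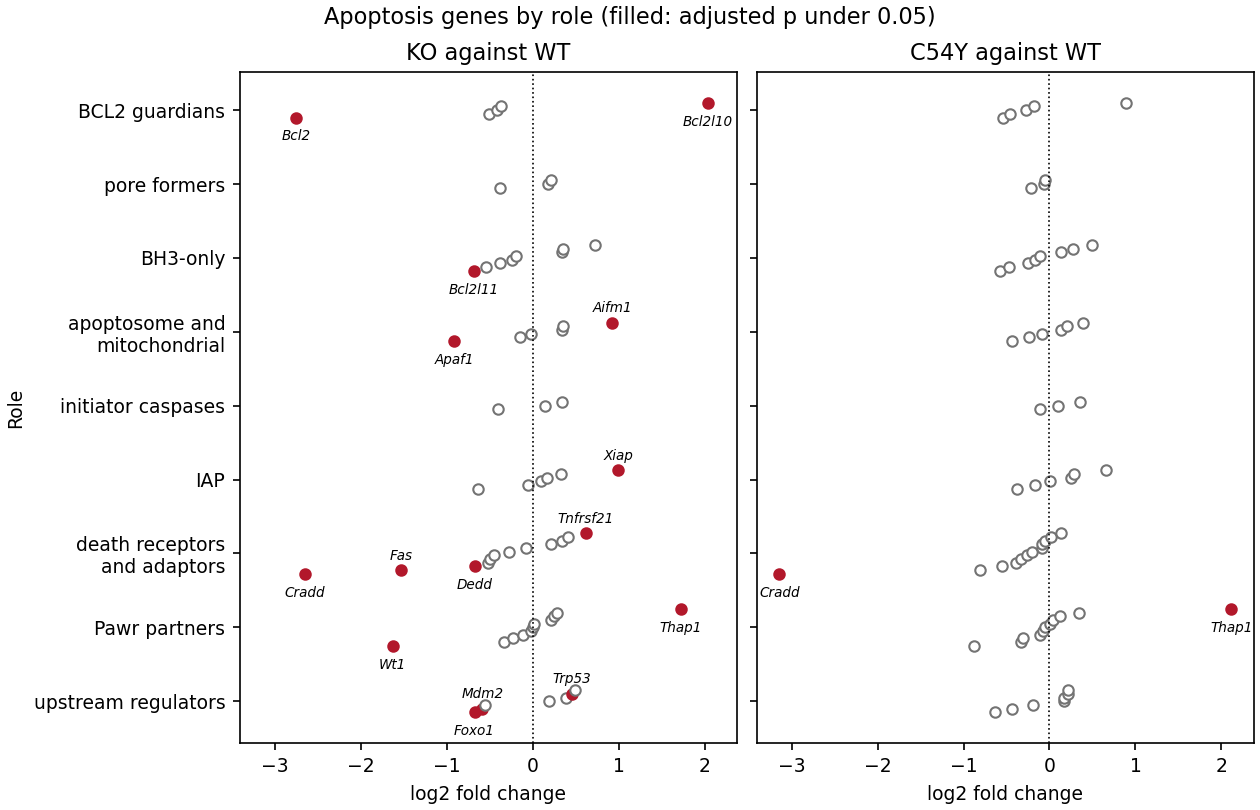
Fitted log2 fold changes of the tested apoptosis genes by role, KO against WT on the left and C54Y against WT on the right, with filled points for an adjusted p under 0.05. In KO called genes lie on both sides of 0 and in most roles, none of them an initiator caspase or a pore former, and in C54Y only Cradd and Thap1 are filled.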

How the data were processed

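The deposited table holds 1 signal value per gene and library. It is a normalized count: judged from the values, the authors divided the reads of each gene by a size factor of the library. Per the submitters' processing notes, CASAVA, Trimmomatic, TopHat2 2.1.0, HTSeq, DESeq2 and build mm9 were used. Annotation, strand setting and filters are not given in the sources used here. In every column all values (100%, tolerance 1e-06) were integer multiples of the smallest step, so whole reads were recovered for edgeR 4.0.16, DESeq2 1.42.0 and limma-voom.

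limma 3.58.1 (robust trend, R 4.3.3) was fitted to log2(normalized count + 2) over all 6 libraries, with genotype and replicate number as terms and Benjamini-Hochberg adjustment over 15287 genes. Fold changes are on that scale and understate those of low genes. Deviations of same-numbered libraries from their group means correlated at 0.907, 0.869 and 0.895 across genes, and the labels do not say what a number stands for. The block was used because the genes are compared within replicate numbers. The fit was also run on simulated data with a replicate effect shared by all genotypes, which is what the fit assumes. That run therefore cannot test this assumption.

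Exon lengths came from GENCODE M21, positions and promoters from RefSeq GRCm38.p6, a later build than mm9. Named were the 9 genes, Thap1, at most 4 called genes per list, and the 3 nearest genes of Pawr and of Bcl2. Further genes named as not called were picked after their values were seen. Members and lists were chosen with earlier results of these data known. Alternatives varied the block, tool, scaling, pseudocount, filter and libraries.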

Additional observations from a re-analysis of the deposited data

How the results depend on the processing

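The replicate block decided the number of calls. Without it limma and edgeR called 0 genes in each comparison, and DESeq2, added after seeing the data along with unblocked edgeR, called 235 (KO against WT), 28 (C54Y against WT) and 3 (KO against C54Y). With the block limma called 2494, 208 and 29. Fitting only the groups compared gave 1743 for C54Y against WT and 677 for KO against C54Y. DESeq2 with the block gave 479 and 453 there, and limma-voom 297 for KO against C54Y. Leaving out 1 library gave 1749 to 4861, 69 to 1818, and 7 to 2831 genes. A group left with 1 library adds nothing to the spread and is assumed to vary like the others.

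The falls of Bcl2, Pawr and Bcl2l11 in KO kept their direction in all 18 alternatives. Several of these, such as limma without the block, leave the fold change as it is, so the sign could not turn there. The calls ended in 3 (Bcl2), 4 (Pawr) and 4 (Bcl2l11) of the 18, the unblocked fits among them. With the block, the KO calls of 1361 higher and 1133 lower genes became 1304 and 1662 with limma-voom. Sign changes occurred only where neither limma on all libraries nor the alternative made a call. For Mcl1 in KO against C54Y they were -0.0194 (edgeR), -0.0157 (limma-voom), -0.0244 (TMM scaling) and -0.0205 (edgeR, no block), with -0.185 to 0.267 over left-out libraries. Over left-out libraries Bcl2l1 ranged from -0.637 to 0.0815 (C54Y) and -0.64 to 0.184 (KO against C54Y). Bax ranged from -0.112 to 0.0174 in C54Y. Casp8 ranged from -0.825 to 0.0287 (KO), -0.714 to 0.49 (C54Y) and -0.888 to 0.316 (KO against C54Y). Bcl2l10 ranged from -0.0655 to 1.854 in C54Y. Low counts limit the precision for Bcl2, Casp8, Bcl2l10 and Fas.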
